A study of Mus musculus with 6 samples.

Results

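The 7 genes described here encode CXCL1, CXCL2, CXCL3 and CXCL5, the receptor CXCR2, granulocyte colony-stimulating factor (Csf3) and its receptor (Csf3r). They were taken by symbol from a table of 23302 mouse genes, in which each symbol had 1 entry. RNA was sequenced from macrophages of malignant pleural effusions (MPE, fluid that tumors cause in the pleural cavity) 10 days after injection of MC38, a line of mouse colon carcinoma cells. Macrophages were pulled out with beads against F4/80, a surface protein of mouse macrophages, with their purity checked by flow cytometry. The study also took mononuclear cells from a Ficoll density gradient, which removes most granulocytes and red cells, to determine cell subsets. Whether the sequenced macrophages passed through that gradient is not stated. By their labels, 3 libraries came from IL-10-/- mice and 3 from WT mice. The study describes the mice of both groups as of C57BL/6 background. The IL-10-/- mice lack the cytokine in every cell, not in macrophages alone. Whether each library was made from 1 mouse or from pooled mice is not stated by the labels, and the p-values therefore cover only the spread among libraries, which may be technical. The study bought its WT and IL-10-/- mice from different suppliers, and supplier and genotype cannot be told apart here.

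The ELR chemokines, named for a short motif near their start, recruit neutrophils through CXCR2, a G protein-coupled receptor that mouse neutrophils carry. Macrophages are a main source of CXCL1, CXCL2 and CXCL3 in inflamed tissue, and transcription of these genes is driven by NF-kB. Granulocyte colony-stimulating factor (G-CSF) drives the making of neutrophils and their release from bone marrow, and its receptor sits on neutrophils and, at lower levels, on monocytes.

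Il10, the targeted gene, was read first as a check on the labels. It was at 59.2, 62.0 and 42.4 FPKM (fragment counts scaled by transcript length and library depth) in the libraries labelled IL-10-/- and at 6.43, 33.3 and 7.33 FPKM in the WT libraries. The groups did not overlap, with a log2 fold change of 2.09 that did not pass the test (standard error 0.53, adjusted p = 0.14 from limma). The level of transcript thus went against the labels as a plain loss of RNA. A value per gene does not show whether the transcript is complete, and an exchange of the group labels, which would turn every direction given here, cannot be told apart from it by this gene. The groups are therefore called by their labels. Defining macrophage genes were abundant in all 6 libraries. The 10 measured together held 11309 to 14275 FPKM in the libraries labelled IL-10-/- and 7922 to 10181 FPKM in the WT libraries, and none of them passed the test in either direction. Without Lyz2, which monocytes and neutrophils express too, the other 9 overlapped, at 4343 to 5022 FPKM in the libraries labelled IL-10-/- and 3515 to 4985 FPKM in WT.

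Cxcl1, Cxcl2, Cxcl3 and Cxcl5 lie on the plus strand of chromosome 5 (GRCm38) within 147 kb, in a cluster with Ppbp, Pf4 and Cxcl15. In the deposited table Cxcl5 spans 90759360 to 90761624, Cxcl3 spans 90786103 to 90789600, Cxcl1 spans 90891241 to 90893115 and Cxcl2 spans 90903871 to 90905938. The main coding transcripts of these 4 genes have 4 exons each in GENCODE release 21 for mouse. Cxcr2 is on chromosome 1 (74153989 to 74161246), 56.9 Mb from Il10 on the same chromosome. Csf3 is on chromosome 11 (98701263 to 98703629) and Csf3r on chromosome 4 (126024550 to 126044440). The table lists Cxcl1 as ENSMUSG00000029380, Cxcl2 as ENSMUSG00000058427, Cxcl3 as ENSMUSG00000029379 and Cxcl5 as ENSMUSG00000029371. Cxcr2 is ENSMUSG00000026180, Csf3 is ENSMUSG00000038067 and Csf3r is ENSMUSG00000028859.

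The starts of Cxcl1, Cxcl2 and Cxcl3 are shown because these 3 genes share the same NF-kB word near a TATA-type word. Of the 3, Cxcl3 alone passed the test between the groups. Each stretch runs from 170 bases before the RefSeq start site to its 10th transcribed base, on the plus strand of GRCm38.p6. Capitals mark GGAATTTCC (NF-kB) and ATAAAAGG (TATA type).
Cxcl1 (chr5:90891075-90891254): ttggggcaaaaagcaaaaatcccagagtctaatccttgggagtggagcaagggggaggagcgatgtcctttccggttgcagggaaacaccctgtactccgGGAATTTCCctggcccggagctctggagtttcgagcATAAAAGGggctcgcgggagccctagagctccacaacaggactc
Cxcl2 (chr5:90903729-90903908): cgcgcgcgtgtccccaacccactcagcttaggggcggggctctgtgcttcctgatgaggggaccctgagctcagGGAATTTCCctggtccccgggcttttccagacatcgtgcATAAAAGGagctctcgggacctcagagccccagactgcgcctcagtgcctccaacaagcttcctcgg
Cxcl3 (chr5:90785931-90786110): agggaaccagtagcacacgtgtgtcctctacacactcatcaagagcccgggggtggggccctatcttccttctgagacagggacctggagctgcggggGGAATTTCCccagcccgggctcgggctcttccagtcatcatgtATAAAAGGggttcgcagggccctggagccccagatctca
The NF-kB word began 66 bases before the deposited start of Cxcl1, 68 bases before that of Cxcl2 and 74 bases before that of Cxcl3. Searched on both strands, it stood in 104 of the 32851 promoter windows of RefSeq (250 bases before to 50 after a start, with several windows for some genes), which is 0.317%. The word ATAAAAGG stood in 1.76% of them. The words do not overlap each other, and a match is a description of letters, not of a bound site. Of the 7 genes, 5 had a window in this set, and those of Cxcr2 and Csf3r held neither word.

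A gene entered the test when 3 or more libraries reached 1 FPKM. The groups were compared by limma on log2(FPKM + 1), and the Benjamini-Hochberg adjustment ran over all 11838 such genes. Log2 fold changes keep to this scale, which understates those of low genes. "Fell" and "rose" mean an adjusted p under 0.05. Of the 7 genes, 6 were tested. Cxcl3, Cxcr2 and Csf3r fell in the libraries labelled IL-10-/-, none rose, and Cxcl1, Cxcl2 and Cxcl5 did not pass. Of all genes tested, 0.482% fell and 0.608% rose, 1.09% in all. The groups lay apart without overlap, with the libraries labelled IL-10-/- lower, for 5 of the 7 genes, against 7.59% of all genes tested (7.8% lay apart the other way), and Cxcl1 and Csf3 overlapped. Csf3 was too low for the test. Cxcl5 was tested only through the WT libraries, which alone reached 1 FPKM, so that it had to differ once it was tested. Its place among the 5 genes without overlap was thus fixed in advance.

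**Figure D1:**
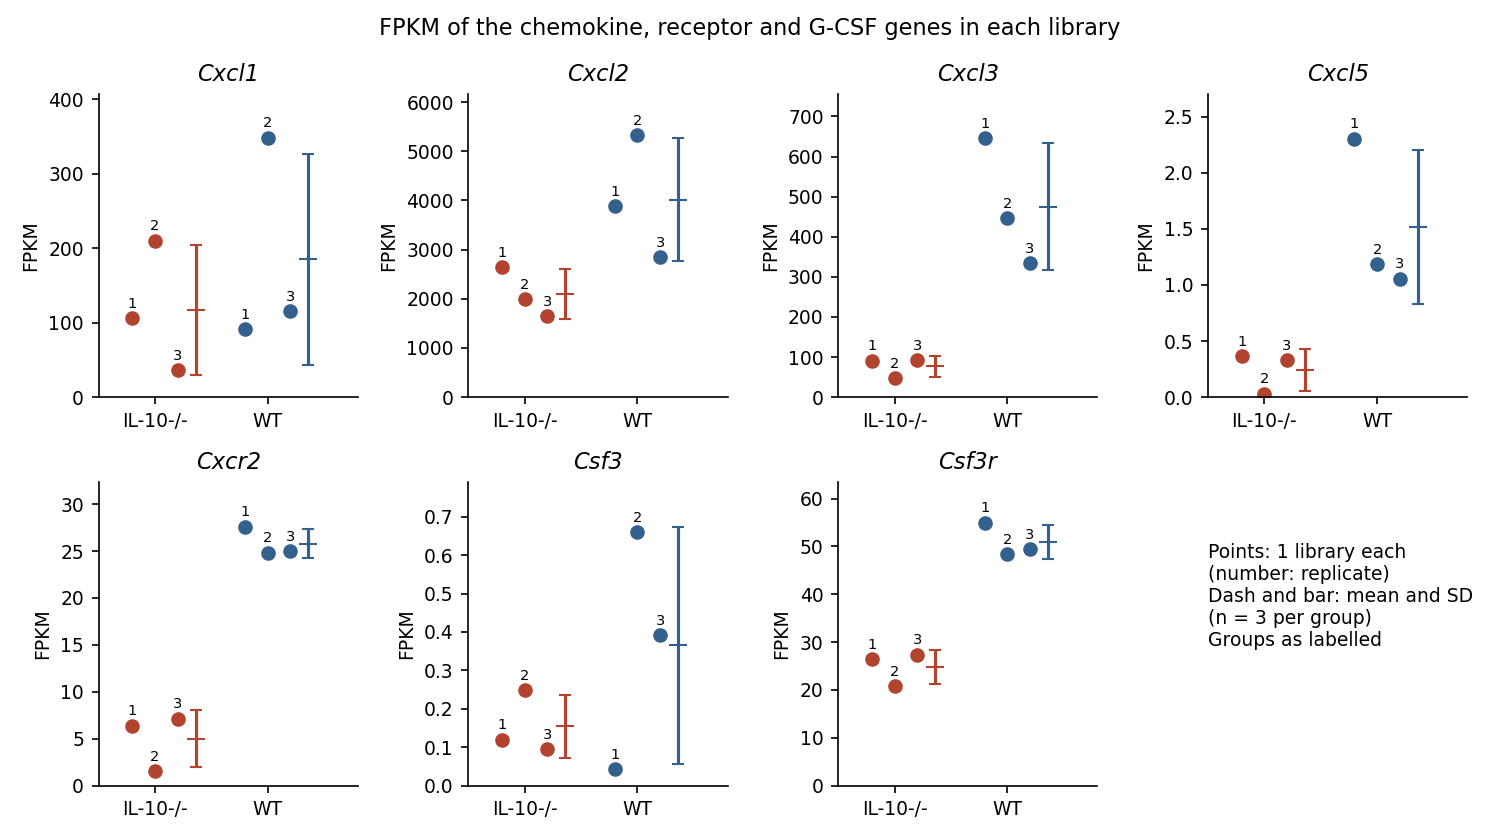
FPKM (vertical axes, from 0) of the 7 genes in each library, with the libraries labelled IL-10-/- on the left and WT on the right of each panel, numbered by replicate, beside the mean and SD (n = 3 per group). For Cxcl3 the libraries labelled IL-10-/- sit between 47.0 and 92.2 FPKM and the WT libraries between 334 and 646 FPKM, whereas for Cxcl1 the groups overlap.

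Cxcl3 was the one ligand of the 4 that fell. Cxcl3, also known in the mouse as dendritic cell inflammatory protein 1, was at 91.3, 47.0 and 92.2 FPKM in libraries labelled IL-10-/- and at 646, 446 and 334 FPKM in the WT libraries. The groups did not overlap, and the lowest WT library was still far above the highest library labelled IL-10-/-. The mean was 76.8 ± 25.8 FPKM in the libraries labelled IL-10-/- and 475 ± 158 FPKM in WT (SD, n = 3 each), 16.2% of the WT level. The log2 fold change was -2.63 (standard error 0.32, adjusted p = 0.011 from limma). It passed whichever of the 6 libraries was left out, with an adjusted p between 0.020 and 0.048 from limma, although not without the filter on low values (0.14).

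Cxcl2, encoding macrophage inflammatory protein 2, was by far the most abundant of the ligands. It was at 2641, 1992 and 1643 FPKM in libraries labelled IL-10-/- and at 3882, 5327 and 2842 FPKM in the WT libraries. The groups did not overlap, but the highest library labelled IL-10-/- came close to the lowest WT library. By level it ranked between 45 and 128 of all genes in the libraries labelled IL-10-/- and between 20 and 58 in the WT libraries. The mean was 2092 ± 506 FPKM against 4017 ± 1248 FPKM in WT (SD, n = 3 each). The log2 fold change of -0.92 did not pass (95% confidence interval -1.58 to -0.26, adjusted p = 0.24 from limma), nor did it under any of 14 alternative settings (0.11 to 0.60).

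Cxcl1, encoding the chemokine also called KC, spread widely within both groups. It was at 106, 210 and 36.3 FPKM in libraries labelled IL-10-/- and at 91.4, 348 and 116 FPKM in the WT libraries. Replicate 2 was the highest of each group, and the groups overlapped. The log2 fold change was -0.72 (95% confidence interval -2.26 to 0.82, adjusted p = 0.81 from limma), so these libraries allow both a large fall and a rise. With replicate 3 of the libraries labelled IL-10-/- left out it was -0.05, and with their replicate 2 left out it was -1.30. WT replicate 2 moved it as well, to -0.14 when it was left out. Il6, an NF-kB target gene chosen after its values were seen, had the same highest and lowest library as Cxcl1 within each group. It was at 21.2, 41.8 and 6.72 FPKM in libraries labelled IL-10-/- and 8.05, 31.2 and 13.8 FPKM in the WT libraries. Tnf, Il1b and Tnfaip3, chosen in the same way, did not share this order. Each was highest in replicate 1 of the libraries labelled IL-10-/- and lowest of the WT libraries in replicate 3.

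Cxcl5, a chemokine made mainly by epithelial cells, was near the limit of detection. It was at 0.367, 0.031 and 0.329 FPKM in libraries labelled IL-10-/- and at 2.30, 1.19 and 1.05 FPKM in the WT libraries. Whole steps among the low values of the table show what 1 fragment is worth in each library, and with the coding transcript (1575 bases) these levels come to about 14, 1 and 12 fragments in the libraries labelled IL-10-/- and 61, 39 and 28 in the WT libraries. The groups did not overlap. The log2 fold change was -0.995 (standard error 0.25, adjusted p = 0.14 from limma) with a pseudocount of 1, and -2.36 with 0.1 (adjusted p = 0.19 from limma). The filter fixed this direction in advance, so these values are no support for a difference. Defining genes of epithelium were low too: Epcam and Cldn4 were under 1 FPKM in all 6 libraries, with Cldn4 at 0 in 3 of them, and the 6 epithelial genes summed to 5.80 to 12.4 FPKM in the libraries labelled IL-10-/- and 6.04 to 10.2 FPKM in WT.

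**Figure D2:**
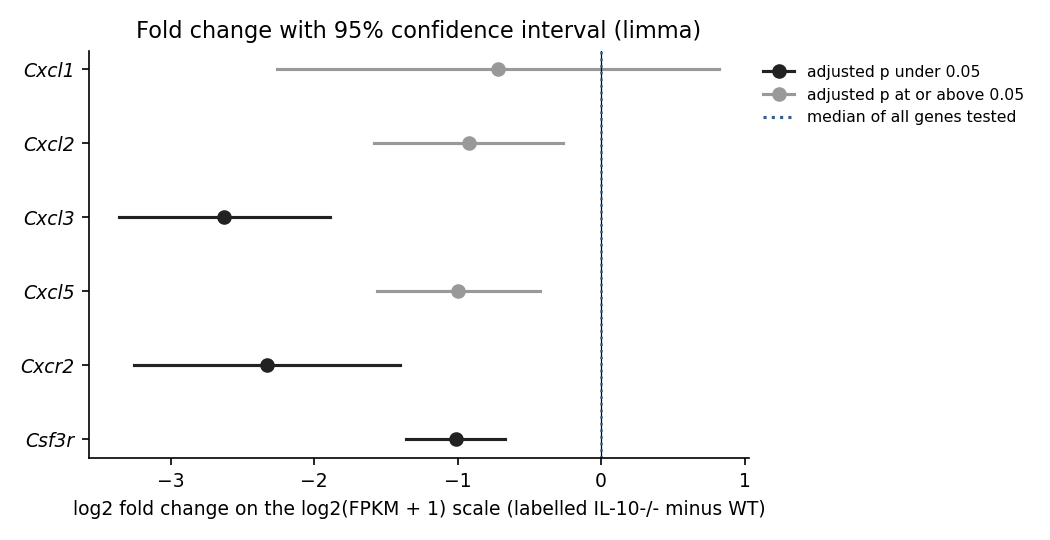
Log2 fold change (horizontal axis, libraries labelled IL-10-/- minus WT on log2(FPKM + 1)) with its 95% confidence interval for the 6 genes tested (rows), black where the adjusted p was under 0.05, and the median of all genes as a dotted line. Cxcl3 at -2.63 and Cxcr2 at -2.33 lie farthest from 0, and the interval of Cxcl1 spans 0.

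Cxcl3 took a smaller share of the ligand sum in each library labelled IL-10-/- than in any WT library. The 4 ligands summed to 2839, 2249 and 1772 FPKM in libraries labelled IL-10-/- and to 4622, 6123 and 3292 FPKM in the WT libraries. Cxcl3 made up 3.22%, 2.09% and 5.20% of that sum in the libraries labelled IL-10-/-, against 14.0%, 7.29% and 10.1% in the WT libraries. Cxcl2 made up 91.4% ± 2.49 of it in the libraries labelled IL-10-/- and 85.8% ± 1.58 in the WT libraries (SD, n = 3 each). The log2 ratio of Cxcl3 to Cxcl2 was 1.70 lower in libraries labelled IL-10-/-, and the groups did not overlap. An exact two-sided permutation test gave p = 0.1, the smallest that 3 against 3 allow (0.20 adjusted over 4 ratios). The ratio of Cxcl3 to Cxcl1 differed by -1.91 (exact permutation p = 0.2, adjusted 0.27), or by -1.01 without replicate 2 of the libraries labelled IL-10-/-, and that of Cxcl2 to Cxcl1 by -0.20 (exact permutation p = 1).

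Cxcl2 and Cxcl3 are close copies, which bears on how reads were shared out. Their coding sequences are 89.7% identical and their main transcripts share an unbroken run of 110 bases, against reads of 150 bases. Cxcl1 is 75.7% identical to Cxcl2 and 72.7% to Cxcl3, with a longest shared run of 23 bases in each case. No source used here names the counting tool, so the split of fragments between Cxcl2 and Cxcl3 is uncertain, and its part in the levels of Cxcl3 was not tested.

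Ppbp and Pf4, which lie between Cxcl5 and Cxcl3, fell too. Ppbp, the platelet basic protein gene whose product is processed to another CXCR2 ligand, was at 26.9, 13.5 and 58.8 FPKM in libraries labelled IL-10-/- and at 631, 241 and 326 FPKM in the WT libraries. Its log2 fold change was -3.67 (standard error 0.52, adjusted p = 0.021 from limma). Pf4, platelet factor 4, which lacks the ELR motif, was at 487, 466 and 875 FPKM in libraries labelled IL-10-/- and at 1961, 3052 and 2675 FPKM in the WT libraries (log2 fold change -2.11, limma adjusted p = 0.018). Neither gene overlapped between the groups. With 1 library left out, Ppbp kept its call in 4 of 6 fits (adjusted p = 0.0084 to 0.079 from limma) and Pf4 in 2 of 6 (0.0084 to 0.086). Cxcl15, a lung chemokine gene, was listed at 0 in all libraries labelled IL-10-/- and reached 0.027 FPKM in WT. Ppbp and Pf4 are on the list of platelet genes, as are Gp9 and Itga2b, which were not tested. Gp9 was at 0.176 to 0.265 FPKM in the libraries labelled IL-10-/- and 0.878 to 2.36 FPKM in WT. Itga2b was at 0.282 to 0.714 FPKM in the libraries labelled IL-10-/- and 0.763 to 2.62 FPKM in WT. The other 3 platelet genes, Gp1ba, Gp1bb and Treml1, overlapped between the groups and were not tested. The 7 platelet genes summed to 483 to 935 FPKM in the libraries labelled IL-10-/- and 2595 to 3300 FPKM in WT. Nearly all of it was Pf4 and Ppbp, so the sum follows these 2 genes and does not measure platelets. No other gene of the 7 exceeded 2.62 FPKM in any library, and none of the 7 was at 0. Red cell genes summed to 971 to 3785 FPKM in the libraries labelled IL-10-/- and 5694 to 12685 FPKM in WT. The part of these cells in the levels of the ligands was not tested.

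**Figure D3:**
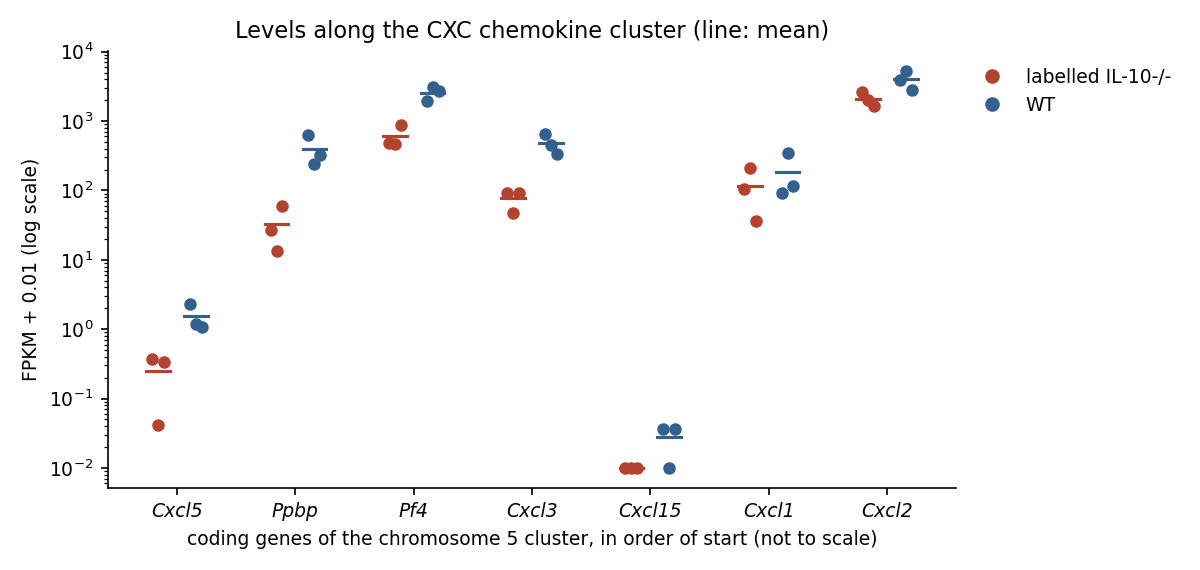
FPKM plus 0.01 on a log axis for the 7 coding genes of the chromosome 5 cluster in the order of their starts (not to scale), points for libraries labelled IL-10-/- (left of each pair) and WT (right), lines for means. Groups are apart for Cxcl5, Ppbp, Pf4, Cxcl3 and Cxcl2, overlap for Cxcl1, and touch 0 for Cxcl15.

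Cxcr2 was lower in every library labelled IL-10-/-. It was at 6.41, 1.51 and 7.13 FPKM there and at 27.6, 24.8 and 25.0 FPKM in the WT libraries. The WT libraries were nearly equal, whereas the library labelled IL-10-/- replicate 2 lay well under the other two of its group. That level still rests on about 72 fragments by the shorter transcript (2220 bases). The mean was 5.02 ± 3.06 FPKM in the libraries labelled IL-10-/- and 25.8 ± 1.56 FPKM in WT (SD, n = 3 each), 19.4% of the WT level. The log2 fold change was -2.33 (standard error 0.40, adjusted p = 0.042 from limma). The call depended on single libraries and on the processing. Leaving out replicate 2 of the libraries labelled IL-10-/- kept it (adjusted p = 0.0072 from limma), as did leaving out their replicate 3 (0.041), but it was lost without their replicate 1 (0.072) or without WT replicate 1, 2 or 3 (0.096, 0.16 and 0.14). With all 6 libraries it was lost with a pseudocount of 0.1 (0.073) and with no filter on low values (0.26). Cxcr1, which encodes the related receptor next to Cxcr2, was too low to be tested, at 0.080, 0 and 0.084 FPKM in libraries labelled IL-10-/- and 1.03, 1.16 and 0.524 FPKM in WT.

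Csf3r, the G-CSF receptor gene, was lower by a smaller factor and with less spread. It was at 26.4, 20.7 and 27.4 FPKM in libraries labelled IL-10-/- and at 54.9, 48.4 and 49.4 FPKM in the WT libraries, and the groups did not overlap. The mean was 24.8 ± 3.58 FPKM in the libraries labelled IL-10-/- and 50.9 ± 3.53 FPKM in WT (SD, n = 3 each). The log2 fold change was -1.01 (standard error 0.15, adjusted p = 0.025 from limma). The call stood with WT replicate 1 or with replicate 3 of the libraries labelled IL-10-/- left out. It was lost without any of the other 4 libraries (adjusted p = 0.075 to 0.10 from limma) and after FPKM were rescaled to the same library total (0.061). The log2 ratio of Cxcr2 to Csf3r was 1.31 lower in libraries labelled IL-10-/- (-1.89, -3.11 and -1.80, against -0.97, -0.94 and -0.96 in WT; exact two-sided permutation p = 0.1, the smallest possible, 0.20 adjusted over 4 ratios).

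Csf3, which encodes G-CSF itself, was close to 0 in all libraries. It was at 0.120, 0.249 and 0.094 FPKM in libraries labelled IL-10-/- and at 0.043, 0.659 and 0.392 FPKM in the WT libraries. These levels come to 4, 7 and 3 fragments in the libraries labelled IL-10-/- and 1, 19 and 9 in the WT libraries, whole numbers since the gene has a single annotated transcript. The groups overlapped, and with no filter on low values the log2 fold change was -0.22 (95% confidence interval -0.66 to 0.22, adjusted p = 0.80 from limma). A difference in Csf3 was not detected, with few fragments and a wide spread among the WT libraries.

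Some other neutrophil genes fell along with both receptors. Of 20 neutrophil genes other than these receptors, 17 were tested, 4 fell (S100a8, S100a9, Retnlg and Lcn2) and none rose, and their median log2 fold change was -0.70. Over all genes tested the same median was -0.0025, and 0.482% fell and 0.608% rose. Their summed level was 1366 to 1889 FPKM in the libraries labelled IL-10-/- and 3920 to 5855 FPKM in WT, with S100a8 and S100a9, the calprotectin genes that monocytes express too, as its largest terms in WT. Ly6g, the defining surface marker of mouse neutrophils, was at 0.701, 0.664 and 0.802 FPKM in libraries labelled IL-10-/- and at 1.38, 3.24 and 2.45 FPKM in WT. It entered the test only through the WT libraries, so its fold change is not given, and it is 1 of the 17 genes behind the median. None of the list was at 0. In bulk RNA, fewer cells of a type and less RNA per cell cannot be told apart, and the part of neutrophils in the levels of Cxcr2, Csf3r and Cxcl3 was not tested.

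Cxcr2 and Csf3r were also set against S100a9 and Retnlg, a comparison chosen after the values were seen and not tested. Cxcr2 stood at 1.92%, 1.31% and 1.60% of the S100a9 level in the libraries labelled IL-10-/- and at 2.20%, 1.07% and 1.41% in the WT libraries, so the groups overlapped. Against Retnlg, Cxcr2 averaged 7.72% ± 4.89 in the libraries labelled IL-10-/- and 12.7% ± 0.893 in the WT libraries (SD, n = 3 each), below the WT range in replicates 1 and 2 (6.85% and 3.33%) and within it in replicate 3. Csf3r stood at 7.90%, 18.0% and 6.14% of the S100a9 level in the libraries labelled IL-10-/- and at 4.39%, 2.08% and 2.79% in the WT libraries, and at 28.2%, 45.7% and 49.9% of the Retnlg level against 23.8%, 24.1% and 27.0% in WT, with no overlap in either case. The library labelled IL-10-/- replicate 2, lowest for Cxcr2, was the lowest of its group for S100a8, S100a9, Retnlg, Mmp9 and Stfa2l1 too. It was the highest of its group for Lcn2, Trem1, Lrg1 and Prtn3, at 99.2, 103, 158 and 269 FPKM. Camp, Ltf and Ngp, genes of immature neutrophils, were highest in WT replicate 2, at 18.0, 14.2 and 28.2 FPKM, and lowest in WT replicates 1 and 3. Elane, Mpo and Ctsg, too low for the test, were highest in WT replicate 2 as well. Other genes of the list did not share this. Lcn2, Mmp8 and Cd177 were highest in WT replicate 1, and Prtn3 in replicate 2 of the libraries labelled IL-10-/-.

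**Figure D4:**
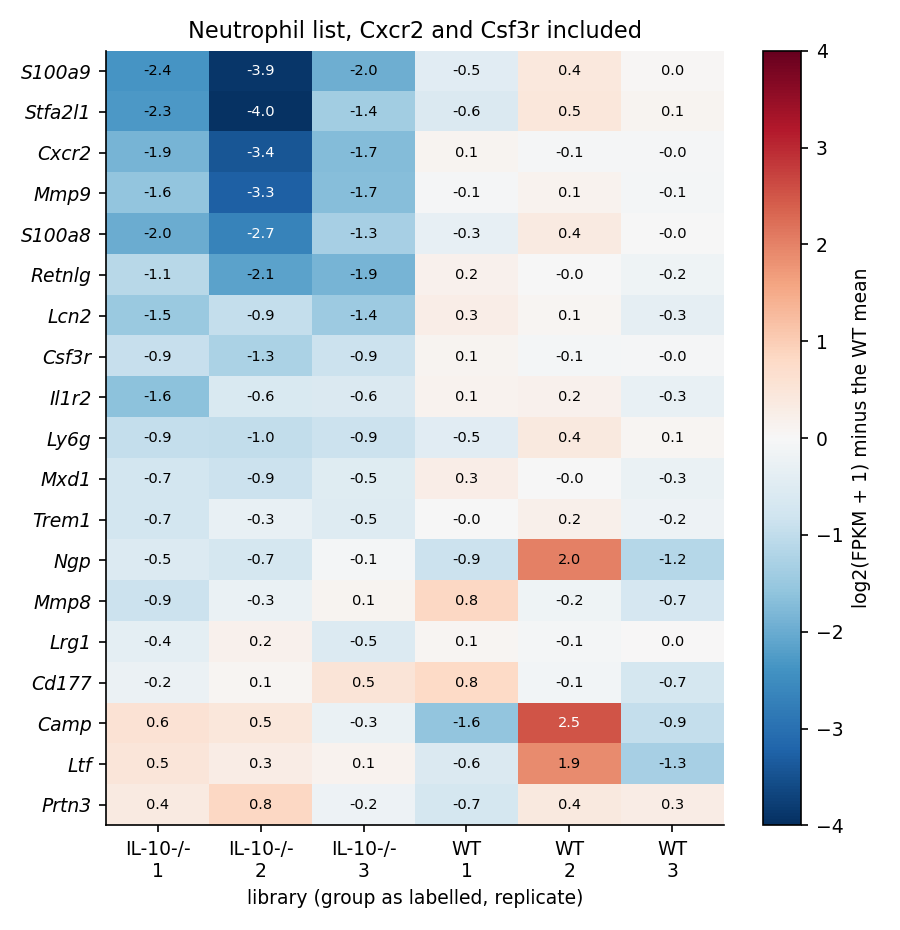
Difference of log2(FPKM + 1) from the WT mean (color, with the value in each cell) for the 19 tested genes of the neutrophil list including Cxcr2 and Csf3r (rows, ordered by fold change) in the 6 libraries (columns). Cxcr2 sits among S100a9, Stfa2l1 and Mmp9, with its lowest cell in the library labelled IL-10-/- replicate 2, and the lower rows do not follow the groups.

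Of 8 classical monocyte genes tested, 1 rose and none fell, against 0.608% and 0.482% of all genes tested. The 1 was Ly6c2, whose product is a surface protein of classical monocytes. It was at 2290, 3610 and 2176 FPKM in libraries labelled IL-10-/- and at 734, 715 and 903 FPKM in the WT libraries. The whole list summed to 8786 to 12957 FPKM in the libraries labelled IL-10-/- and 5370 to 7624 FPKM in WT. Without Ly6c2 and Plac8 the other 6 genes overlapped, at 3012 to 4107 FPKM in the libraries labelled IL-10-/- and 2197 to 4928 FPKM in WT. The part of monocytes in these results was not tested.

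By pattern over the 6 libraries, the genes most like Cxcl3 were Csf3r, Bsdc1 and Cd163, with Pearson coefficients of 0.991, 0.991 and 0.990 on log2(FPKM + 1). Those most like Cxcr2 were Mmp9, encoding a gelatinase of neutrophil granules, Slc40a1, the iron exporter gene, and Dgat1, an enzyme gene of triglyceride synthesis, at 0.995, 0.994 and 0.991. These are descriptions over 6 points that share the difference between the groups, which raises the coefficient of genes whose groups lie apart. Slc40a1 was low, at 0.740, 0.223 and 0.769 FPKM in libraries labelled IL-10-/- and 1.91, 2.06 and 1.81 FPKM in WT. It passed the filter only through the WT libraries, which fixed its separation in advance, so its coefficient is no support for a likeness. Cd163, the scavenger receptor of hemoglobin complexes, was at 9.42, 7.40 and 11.8 FPKM in libraries labelled IL-10-/- and 65.6, 40.8 and 37.5 FPKM in WT.

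No gene listed for the control of these chemokines or for signaling below CXCR2 passed the test. Of 21 tested genes that induce ELR chemokines or control decay of their mRNA, 0 rose and 0 fell, with a median log2 fold change of -0.03. At an unadjusted p under 0.05 from limma the number was also 0. The smallest p-values were those of Il17ra, a receptor subunit for interleukin 17 (log2 fold change -0.37, adjusted p = 0.47), and Zfp36l1, a factor of mRNA decay (-0.39, adjusted p = 0.54). Il17a was under 1 FPKM in all libraries. Of 17 tested genes of the G-CSF pathway and related growth factors, 0 rose and 0 fell, with 5 at an unadjusted p under 0.05. The smallest p-values were those of Csf1, encoding the macrophage growth factor (9.91, 6.16 and 10.9 FPKM in libraries labelled IL-10-/-, 14.1, 24.7 and 20.4 FPKM in WT, log2 fold change -1.05, adjusted p = 0.13 from limma), and its receptor gene Csf1r (0.44, adjusted p = 0.29). Of 23 tested entries for signaling below CXCR2, 0 rose and 0 fell, with 1 at an unadjusted p under 0.05, the G protein gene Gna15 (0.34, adjusted p = 0.46 from limma). For Gng2, encoding another G protein subunit, it was 0.30 (adjusted p = 0.50).

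Of 18 tested genes for neutrophil attractants and their receptors, 2 fell and 0 rose, against 0.482% and 0.608% of all genes tested. S100a8 was among these 2 (log2 fold change -1.99, limma adjusted p = 0.040), and it is counted with the neutrophil genes above too. It encodes a subunit of calprotectin, which attracts neutrophils. The other was Cxcr4, the receptor that holds neutrophils in bone marrow, at 34.9, 22.0 and 34.2 FPKM in libraries labelled IL-10-/- and 67.0, 110 and 72.9 FPKM in WT (-1.42, adjusted p = 0.040). No fit with a library left out kept its call (adjusted p = 0.052 to 0.12 from limma), and that of S100a8 was lost without any single library except the one labelled IL-10-/- replicate 3 (0.055 to 0.16). The CXCR3 ligands lay on the other side of 0 without passing: Cxcl10 was at 79.6, 84.6 and 58.1 FPKM in libraries labelled IL-10-/- and 18.6, 41.1 and 23.5 FPKM in WT (log2 fold change 1.44, adjusted p = 0.067 from limma), and for Cxcl9 it was 1.05 (adjusted p = 0.11). Cxcl10 passed under 3 alternatives, with FPKM rescaled (adjusted p = 0.036 from limma), with array weights (0.017) and without WT replicate 2 (0.026).

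**Figure D5:**
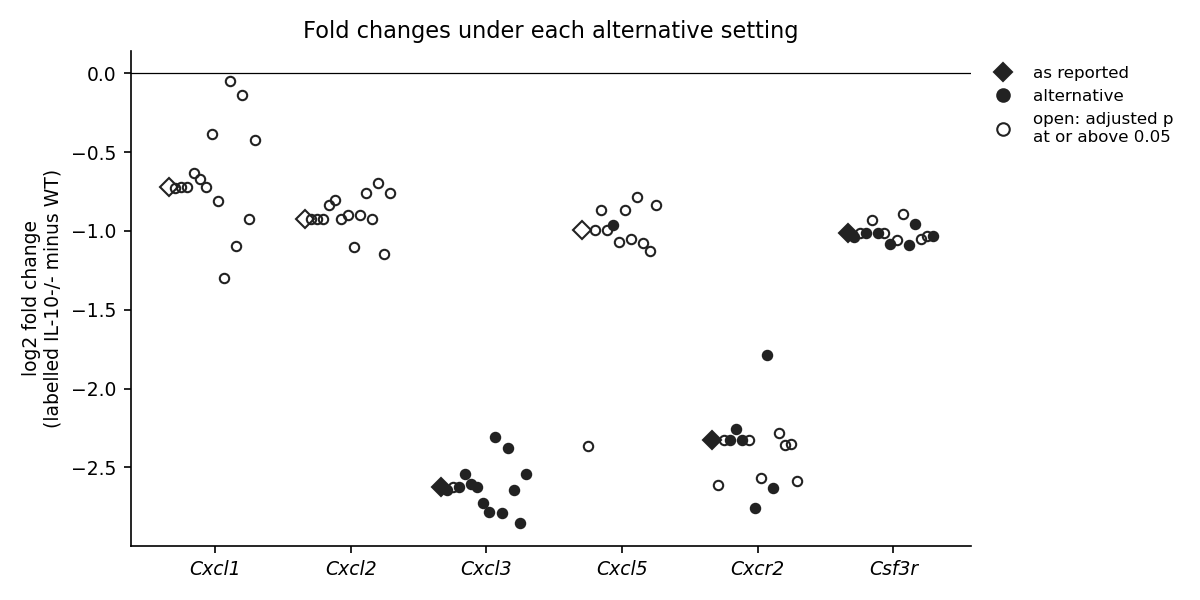
Log2 fold change (vertical axis) of the 6 tested genes (horizontal axis) as reported (diamond) and under each alternative setting (circle), filled where the adjusted p was under 0.05. Cxcl3 stays between -2.85 and -2.31 and is filled in all alternatives but the one with no filter on low values. Cxcr2 and Csf3r are filled in part of them, Cxcl5, whose direction the filter fixed in advance, in 1, and Cxcl1 and Cxcl2 in none.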

How the data were processed

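Poly(A) RNA of 6 libraries was sequenced as paired ends of 150 bases. The authors deposited FPKM per gene on GRCm38, as the submitters' processing notes name it. The aligner, the counting tool and the use of strand: not given in the sources used here. Columns of the authors' own comparison (fold change, p-value, q-value, mark) were not used.

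FPKM were tested with limma 3.58.1 (R 4.3.3), with an intensity trend, on log2(FPKM + 1), over the 11838 genes that reached 1 FPKM in 3 or more libraries, two-sided, with Benjamini-Hochberg adjustment. Single ratios had an exact permutation test (SciPy 1.17.1). The code was tested on simulated data. The genes and lists were chosen with earlier results of these data known. Named genes were the 7, the targeted gene, each list's called genes or its 2 smallest p-values, cluster neighbors and the 3 nearest patterns. Other genes named, such as Il6 and single marker genes, were chosen after their values were seen.

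Depth was read from whole steps in low FPKM of genes with a single transcript, of which 89.1% to 91.0% lay within 0.05 of a whole fragment. On the authors' scale this gives 24500000 to 29000000 fragments in the libraries labelled IL-10-/- and 20000000 to 25000000 in WT. Most genes have several transcripts, so no count test was run. Promoter windows are from RefSeq (GRCm38.p6) and transcripts from GENCODE release 21 for mouse. Alternatives were another pseudocount and filter, rescaled and quantile-normalized FPKM, array weights, a replicate block and each library left out.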

Additional observations from a re-analysis of the deposited data

How the results depend on the processing

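Over all genes, 72 rose and 57 fell, and 3 of the 7 genes described were among those that fell. With no filter on low values these counts were 22, 10 and 0. The adjusted p from limma was then 0.14 for Cxcl3, 0.26 for Cxcr2 and 0.11 for Csf3r, at unchanged log2 fold changes of -2.63, -2.33 and -1.01. More genes, most near 0, entered the adjustment, and the unadjusted p rose too. From limma it went from 3.3e-05 to 0.00048 for Cxcl3, 0.00040 to 0.0031 for Cxcr2 and 0.00013 to 0.00028 for Csf3r. With array weights 248 genes rose and 234 fell. Cxcl5 then passed (-0.96, adjusted p = 0.043 from limma), but it entered the test only through the WT libraries, so this call is no support for a difference. Cxcr2 did not pass with a pseudocount of 0.1 (-2.61, adjusted p = 0.073) and Csf3r not with FPKM rescaled to an equal sum (-0.93, 0.061), a setting that moved the median of all genes to 0.07. Without both libraries that were low in genes of resident cavity macrophages (replicate 3 of the libraries labelled IL-10-/- and replicate 1 of WT), a setting chosen after seeing the data, 152 genes rose and 129 fell, and Cxcr2 did not pass (-2.59, 0.060). With 1 library left out, 26 to 78 genes rose, 14 to 62 fell and 1 to 3 of the 7 fell. The log2 fold changes then ran from -2.85 to -2.31 for Cxcl3, -2.63 to -1.79 for Cxcr2, -1.09 to -0.89 for Csf3r, -1.12 to -0.78 for Cxcl5 and 1.70 to 2.80 for Il10, which passed without WT replicate 2 alone (adjusted p = 0.0049). The difference in the log2 ratio of Cxcl2 to Cxcl1 ran from -0.71 to 0.40, above 0 when replicate 2 of the libraries labelled IL-10-/- (0.40) or WT replicate 1 (0.17) was left out. The check used did not settle whether replicate numbers pair the samples. Deviations of same-numbered libraries from their group means correlated at 0.09, 0.20 and 0.09, and those of other pairs at -0.17 to 0.05. Each library correlated best with its own number. With the replicate block, 36 genes rose and 25 fell, 1 of them of the 7 (Cxcl3), and Cxcr2 (-2.33, adjusted p = 0.068) and Csf3r (-1.01, 0.067) did not pass. Cxcl5 was not tested at a filter of 5 FPKM or after rescaling. The cause of these changes was not tested. Cxcl5 and Csf3 rest on few fragments, and the shares of depth and of spread between libraries in their error were not tested.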
